A study of Mus musculus with 2 samples.

Results

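The messenger RNAs of 37 mouse genes for histone-modifying enzymes and their scaffolds were compared between embryonic stem cells with and without an shRNA against Sin3a. The genes were listed by name and enzyme class: 11 acetyltransferases and scaffolds of acetyltransferase complexes, 13 lysine demethylases, 10 lysine methyltransferases and 3 arginine methyltransferases. Each was measured by its brightest probe set, the set of short oligonucleotides on the array that reads 1 transcript, and only probe sets annotated to 1 gene were used. Of the 18193 genes that such a probe set reads, 36 belonged to this list. Suv39h1, a histone H3 lysine 9 methyltransferase, had no such probe set and was not analysed here.

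The cells were E14, a mouse embryonic stem cell line, cultured on gelatin with serum and leukemia inhibitory factor. In the shCtrl culture a lentiviral shRNA had no target, in the other it was shSin3a-1, which is directed at Sin3a, and puromycin was used to select infected cells in both. Sin3a encodes SIN3A, which scaffolds a complex of histone deacetylases. The control thus shares the virus and the drug with the knockdown, and only 1 hairpin against Sin3a was used. Each group was 1 array, so no difference has a replicate check and no p-value was computed. In bulk RNA, fewer cells of a type and less RNA per cell cannot be told apart.

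Histone tails carry acetyl and methyl groups that are written by acetyltransferases and methyltransferases and removed by deacetylases and demethylases. SIN3A gathers the deacetylases HDAC1 and HDAC2 at promoters, so the enzymes described here write or erase marks on the same histones on which SIN3A complexes act. In embryonic stem cells these enzymes are known for keeping promoters of active genes acetylated and trimethylated at H3 lysine 4, and for silencing retroelements and lineage genes by methylation of H3 lysine 9.

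As a check of the labels, the brightest Sin3a probe set gave a signal of 3072 for shCtrl and of 534 for shSin3a-1, or 18.8% of the control after the scaling below, and its other 2 probe sets were at 20.3% and 32.4%. Signals are the deposited linear MAS5 values. Differences are on the log2 scale, shSin3a-1 minus shCtrl, with the arrays brought to a common median, a centring that raised every difference by 0.11. The 10 embryonic stem cell markers examined were all well detected, and together they gave 95647 on the shCtrl array and 100831 on the shSin3a-1 array. The summed signals of all 10 primitive endoderm markers were 2191 and 3863, those of 10 fibroblast markers 1031 and 560, and those of 8 trophectoderm markers 2853 and 1509. For 5 neuroectoderm markers they were 521 and 379, and for 5 mesoderm markers, none of which passed the filter, 216 and 258. On both arrays the filter was reached by 4 primitive endoderm markers, all above 0, by 1 fibroblast marker and 3 trophectoderm markers, all below 0, and by no neuroectoderm marker. A further 4 primitive endoderm markers passed through shSin3a-1 alone, and 3 fibroblast and 2 neuroectoderm markers through shCtrl alone, which fixes their direction. The fibroblast markers Col1a1, Col3a1, Postn, Dcn and Lum were at the floor on both arrays. The 3' to 5' signal ratio of GAPDH, a measure of RNA integrity, was 0.824 and 0.809. The part of these shifts in the differences below was not tested.

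Chromatin-modifying enzymes were still well detected in the Sin3a knockdown, and none differed by 2-fold in its brightest probe set. Of the 36 genes, 35 passed the filter on signal, which asks for the 60th percentile of an array, and all 35 reached it on both arrays. Their signals ran from 194 to 11014 in shCtrl and from 127 to 8702 in shSin3a-1. The exception was Kdm4d, a demethylase of H3 lysine 9, whose signals of 3.76 and 15.6 lay under the floor (the 40th percentile) on both arrays, so that no fold is given. None of the 35 passed 2-fold, against 4.45% of all 9782 genes that passed the filter, 2.22% of the 9050 that reached it on both arrays and 2.23% of the 7091 genes at or above the 75th percentile of signal, where 32 of the 35 lay.

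At 1.5-fold, 4 of the 35 genes passed in their brightest probe sets: Kmt2a and Kdm4a were lower, and Kdm4c and Phf8 were higher. A second probe set of Kmt2a went the other way (0.67). The same threshold was passed by 16.9% of all genes, with 10.2% higher and 6.76% lower, and by 12.0% of genes at or above the 75th percentile. The 4 genes are 11.4% of the 35, near or under the background. The remaining 31 genes were within 1.5-fold.

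The balance of directions leaned toward lower signals. After centring, 13 of the 35 genes were above 0 and 22 below, whereas 58.8% of all genes were above 0. With the deposited scaling, 6 were above 0 and 29 below, against 45.8% of all genes above 0. The median difference of the list was -0.11, beside 0.07 for all genes, and -0.22 beside -0.03 as deposited. Among genes at or above the 75th percentile, 40.6% of the list's 32 genes and 62.4% of all 7091 were above 0. The 7 genes whose sign turned with the scaling, Ep300, Kat6a, Kat6b, Kdm3a, Kdm5b, Kdm6a and Dot1l, all lay between 0 and 0.10 after centring.

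**Figure D1:**
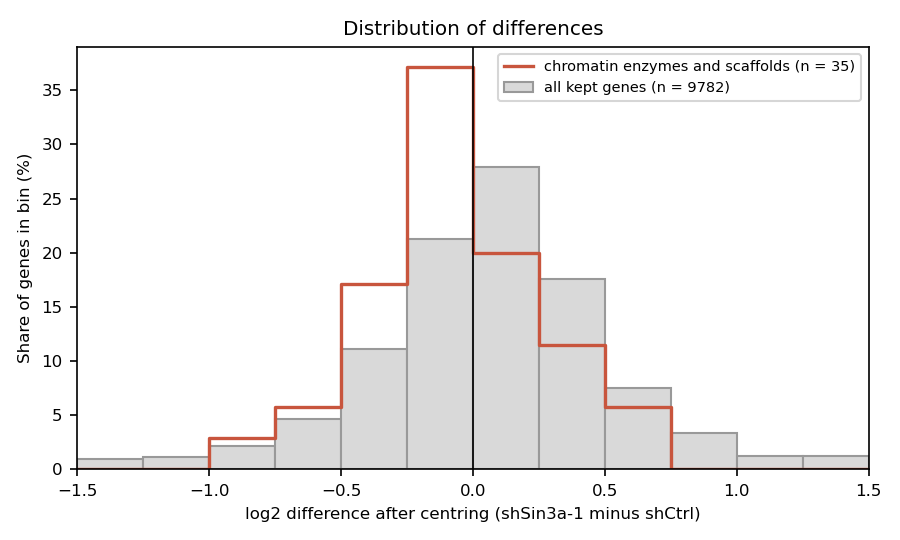
The horizontal axis is the log2 difference after centring (shSin3a-1 minus shCtrl) in bins of 0.25, and the vertical axis is the share of genes in each bin in percent. Grey bars are all 9782 genes that passed the filter, the red line is the 35 chromatin genes, and the outermost bins also hold values beyond them; the fullest bin of the 35 genes lies just below 0 (37.1%), that of all genes just above 0 (27.9%).

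Promoter sequences were set beside these values, since MXD proteins, which recruit SIN3, bind the E-box CACGTG together with MAX, as MYC does. RefSeq promoter windows (build GRCm38.p6, 250 bases before to 50 after a start) were found for 29 of the 37 genes. A window with CACGTG, which reads the same on both strands, was found for 5 of these 29 genes (17.2%), compared with 8.91% of 17492 protein-coding genes and 8.09% of all 27025 genes in the table. The 5 genes were Kdm4c, Prmt1, Ehmt2, Kat5 and Kdm6a. Their differences went both ways, from -0.40 for Kat5 to 0.61 for Kdm4c. A match describes letters in a window and is not a measured binding site. The stretches around the E-box are shown because they hold the motif shared by these 5 genes, with CACGTG in capitals. They lie at chr4:74251767-74251858 (plus strand) for Kdm4c, chr7:44986569-44986628 (minus) for Prmt1, chr17:34898421-34898480 (plus) for Ehmt2, chr19:5610248-5610307 (minus) for Kat5 and chrX:18162521-18162580 (plus) for Kdm6a.
Kdm4c: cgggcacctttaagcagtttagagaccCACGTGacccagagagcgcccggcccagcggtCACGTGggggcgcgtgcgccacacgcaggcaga
Prmt1: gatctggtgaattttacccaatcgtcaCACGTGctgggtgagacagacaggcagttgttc
Ehmt2: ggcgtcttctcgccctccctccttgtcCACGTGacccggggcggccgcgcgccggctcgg
Kat5: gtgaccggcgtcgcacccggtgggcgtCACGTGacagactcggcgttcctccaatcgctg
Kdm6a: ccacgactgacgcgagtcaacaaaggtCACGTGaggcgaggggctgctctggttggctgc

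Kdm4c has 2 windows, of which 1 holds 2 E-boxes, at -85 and -53 from the start, and the other holds none. The E-box nearest the start lies at -26 in Ehmt2 and at -27 in Kdm6a, and farther out at -181 in Prmt1 and -186 in Kat5. The windows of the listed genes were also rich in CG dinucleotides, the sites of DNA methylation. Over their 38 windows the median was 24.5 CG per window, compared with 13 over 21263 windows of protein-coding genes, and the median G and C content was 61.3% against 56.3%. The 100 bases before the start of Kmt2a, Kdm4a and Phf8 are shown because these genes passed 1.5-fold without an E-box, with each CG in capitals. The positions are chr9:44881290-44881389 (minus strand) for Kmt2a, chr4:118180044-118180143 (minus) for Kdm4a and chrX:151520572-151520671 (plus) for Phf8.
Kmt2a: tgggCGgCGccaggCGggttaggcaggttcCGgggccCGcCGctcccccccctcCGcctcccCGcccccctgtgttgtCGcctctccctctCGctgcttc
Kdm4a: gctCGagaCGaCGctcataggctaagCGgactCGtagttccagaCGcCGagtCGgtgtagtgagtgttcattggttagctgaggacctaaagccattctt
Phf8: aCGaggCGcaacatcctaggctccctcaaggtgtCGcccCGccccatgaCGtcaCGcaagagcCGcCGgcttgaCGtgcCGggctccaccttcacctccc
These stretches hold 10, 8 and 10 CG. Kmt2a and Kdm4a were lower in their brightest probe sets, and Phf8 was higher. These genes are few and were picked by the size of their differences, so the counts describe the sequences and cannot be related to direction.

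In their brightest probe sets, acetyltransferases and their scaffolds were similar on both arrays or somewhat lower in the knockdown, apart from the scaffold gene Brd1, which was higher (0.39). Of 11 genes, 4 were above 0 and 7 below, and none passed 1.5-fold. The median was -0.11 (-0.22 as deposited). Ep300 and Crebbp encode the paired coactivators p300 and CBP, which acetylate H3 lysine 27 at enhancers. Ep300 had a signal of 1993 under shCtrl and 1880 under shSin3a-1, a difference of 0.02 that was -0.08 as deposited. Crebbp had 2440 and 2093 (-0.11), and its 3 probe sets past the filter ranged from -0.44 to 0.02. After centring, the pair thus differed by at most 1.08-fold in the brightest probe sets, and the Crebbp probe sets went both ways. As deposited, Ep300 and all 3 of these Crebbp probe sets were below 0, those of Crebbp from -0.54 to -0.09.

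Kat2a and Kat2b encode GCN5 and PCAF, the alternative acetyltransferase subunits of the SAGA and ATAC complexes. Kat2a had signals of 2988 and 2325 (-0.25), and all 3 of its probe sets were lower, from -0.25 to -0.18. Kat2b had 2970 and 2327 (-0.24), in a probe set whose suffix marks shared sequence. These signals are close to those of Kat2a, and whether this probe set also reads Kat2a was not tested. The Kat2b probe sets without such a suffix were dim. A dim Kat2b probe set gave 0.88, with signals of 102 and 174, and passed the filter through shSin3a-1 alone, which fixes its direction. A further dim probe set, at 74.2 and 51.7 (-0.41), did not reach the filter.

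Of the 5 MYST acetyltransferases, Kat5 and Kat7 were lower in both of their probe sets past the filter. Kat5 encodes TIP60, the catalytic subunit of the NuA4 complex, which acetylates H4 and H2A. Its signals were 1082 and 759 (-0.40), and a second probe set gave -0.35. Kat7 encodes HBO1, an acetyltransferase of H3 lysine 14 and H4, and had signals of 4394 and 3380 (-0.27), with -0.27 in a second probe set as well. Kat8, which encodes the H4 lysine 16 acetyltransferase MOF, was near 0 (869 and 757, -0.09). Kat6a (648 and 644, 0.10) and Kat6b (4837 and 4590, 0.03), which encode the paralogues MOZ and MORF, also lay near 0.

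The scaffolds that hold MYST enzymes on chromatin went in opposite directions. Brpf1, which binds MOZ and MORF, had signals of 1266 and 894 (-0.39). Brd1, a paralogue of Brpf1 that works with HBO1, had 589 and 714 (0.39), and its second probe set, which passed the filter through shSin3a-1 alone, gave 0.70 with signals of 127 and 192. Brd1 was the only gene of the class above 0 with the deposited scaling (0.28).

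After centring, lysine demethylases held 3 of the 4 genes past 1.5-fold, which is 25% of the 12 that passed the filter, beside 16.9% of all genes. As deposited, 2 of the 12 passed it (Kdm4a and Kdm4b, both lower), or 16.7% beside 16.6% of all genes. They had the widest range of the 4 classes, from -0.61 to 0.66. Of the 12, 7 were above 0 and 5 below, and the share above 0 (58.3%) was near that of all genes (58.8%). The median was 0.04, and -0.065 as deposited. Within the Kdm4 family, whose members remove methyl groups from H3 lysine 9 and lysine 36, the genes went different ways. Kdm4a had signals of 379 and 231, 1.53-fold lower (-0.61). Kdm4b had 194 and 127 (-0.50), and it passed 1.5-fold with the deposited scaling (-0.61). Kdm4c was 1.53-fold higher (471 and 667, 0.61) and fell short of the threshold as deposited (0.50). Each of these 3 genes rested on 1 probe set past the filter. A second probe set of Kdm4a had signals of 51.8 and 25.3, at the floor in shSin3a-1, and did not reach the filter.

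Phf8, a demethylase of H3 lysine 9 and H4 lysine 20 encoded on the X chromosome, was the highest gene of the list. Its signals were 589 and 863, 1.58-fold higher (0.66), and the difference was 0.55 as deposited, which is under 1.5-fold. Its other 2 probe sets did not reach the filter and differed by 0.18 and 0.32.

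The Kdm5 genes encode demethylases of trimethylated H3 lysine 4, and KDM5A and KDM5B are known partners of SIN3 complexes. Kdm5a had signals of 1290 and 1526 (0.35), and all 3 probe sets past the filter were above 0, the lowest at 0.01 (-0.09 as deposited). Kdm5b had 6467 and 6310 (0.07) in its brightest probe set, while its other probe sets past the filter were lower, with signals of 1450 and 905 (-0.57) and of 723 and 422 (-0.67). Kdm5c, its X-linked paralogue, had 661 and 552 (-0.15), and 4 of its 5 probe sets past the filter were below 0, from -0.44 to 0.11. A Kdm5c probe set under the filter had signals of 42.8 and 106. It was at the floor in shCtrl, so its difference of 1.28, past 2-fold, is a lower bound.

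Demethylases of H3 lysine 27 and of dimethylated H3 lysine 9 and lysine 36 lay closer to 0. Kdm6a, which encodes UTX, was alike on both arrays (1656 and 1613, 0.07), and its second probe set past the filter gave 0.09. Kdm6b, which encodes JMJD3, had 1556 and 1817 (0.33), but its second probe set past the filter had 795 and 490 (-0.59), with a suffix that marks shared sequence. Kdm3a (3876 and 3635, 0.02) and Kdm3b (2195 and 2024, -0.01), demethylases of H3 lysine 9, were alike on both arrays in their brightest probe sets, while a second probe set of Kdm3b gave 0.50. Kdm2a, a demethylase of H3 lysine 36 that binds unmethylated CpG islands, had 393 and 337 (-0.11), and 2 dimmer probe sets were higher (0.42 and 0.61).

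**Figure D2:**
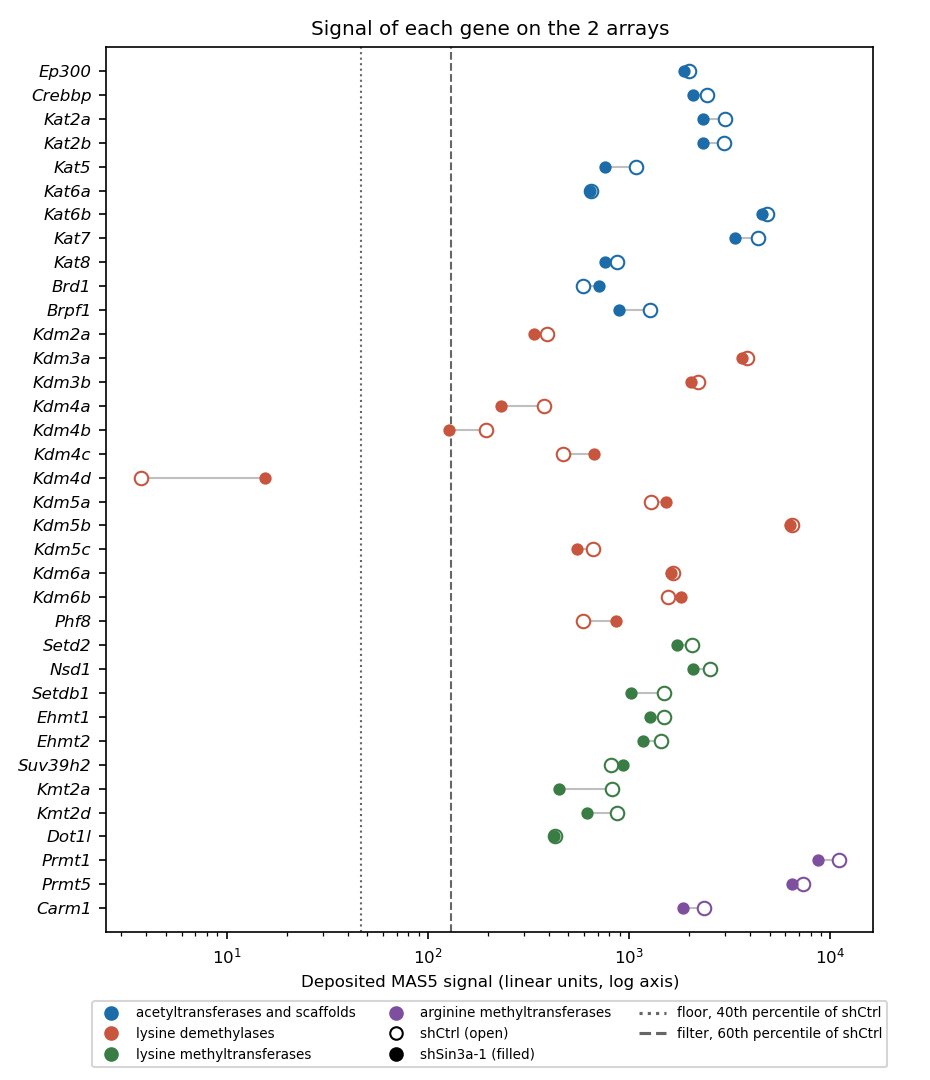
Each row is 1 gene, and the horizontal axis is the deposited MAS5 signal in linear units on a log axis. Open points are the shCtrl array and filled points the shSin3a-1 array, the dotted and dashed lines are the 40th and 60th percentiles of shCtrl, and rows are not to be ranked against each other because each probe set has its own response; of all rows only Kdm4d (3.76 and 15.6) lies under the floor.

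Lysine methyltransferases were mostly lower in their brightest probe sets. Of the 9 genes that passed the filter 7 were below 0, with a median of -0.17 (-0.28 as deposited), but the median was -0.034 with the mean of each gene's probe sets. Among the 7 genes, Kmt2a, Setdb1, Ehmt2 and Nsd1 had a second probe set past the filter, and it was above 0 in each. Those of Setdb1 and Ehmt2 passed through shSin3a-1 alone, which fixes their direction, and those of Kmt2a and Nsd1 reached the filter on both arrays. Kmt2a, which encodes MLL1, an H3 lysine 4 methyltransferase of Hox and other developmental promoters, had the largest difference of the list in its brightest probe set. Its signals were 829 and 451, 1.71-fold lower (-0.77). Its second probe set went the other way by almost as much, with signals of 313 and 462 (0.67), so that the mean of both was -0.05 and Kmt2a had no direction that both probe sets share. Kmt2d, which encodes MLL4, an enzyme that monomethylates H3 lysine 4 at enhancers, had 874 and 620 (-0.39). Its dimmer probe set, at 73.9 and 21.0, was at the floor in shSin3a-1.

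Writers of H3 lysine 9 methylation were lower or higher by at most 1.35-fold in their brightest probe sets. Setdb1, which silences retroelements in embryonic stem cells together with TRIM28, had signals of 1486 and 1019 (-0.44) in its brightest probe set. The other probe set of Setdb1 past the filter, admitted through shSin3a-1 alone, had 126 and 162 (0.47). Ehmt1 and Ehmt2 encode GLP and G9a, which work as a heterodimer, and had differences of -0.13 (1500 and 1274) and -0.18 (1436 and 1178). A dim second probe set of Ehmt2, also admitted through shSin3a-1 alone, gave 0.96, with signals of 104 and 188. Suv39h2, a methyltransferase of pericentric heterochromatin, had 815 and 933 (0.30), and its 3 probe sets ranged from -0.22 to 0.30.

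Setd2 and Nsd1 methylate H3 lysine 36 in gene bodies and across wider domains. Setd2 had signals of 2053 and 1729 (-0.14) and Nsd1 had 2534 and 2092 (-0.17). The second Nsd1 probe set past the filter gave 0.97, with signals of 197 and 357. Under the filter, a dim Nsd1 probe set had 50.6 and 121 (1.37, past 2-fold) and another had 105 and 84.8 (-0.19). Dot1l, the methyltransferase of H3 lysine 79, was near 0 (431 and 426, 0.09), and its second probe set gave -0.11.

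All 3 arginine methyltransferases of the list were below 0 in both scalings. Each was read by 1 probe set, and the suffix of those of Prmt5 and Carm1 marks shared sequence. Prmt1, the main source of asymmetric dimethylarginine, had signals of 11014 and 8702 (-0.23). Carm1, which methylates H3 arginines and coactivators such as p300, had 2361 and 1858 (-0.24). Prmt5, which makes symmetric dimethylarginine, had 7291 and 6477 (-0.06). The largest of these differences is 1.18-fold.

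Other probe sets of the same genes were the only check of these values. They read the same RNA, so they are not replicates. Of the 35 genes, 19 had a second probe set past the filter, and in 6 of these 19 (31.6%) all such probe sets had the same sign. Over all 4413 genes with more than 1 probe set past the filter, the share was 60.1%. As deposited the shares were 42.1% and 56.2%. The second probe sets of Kat2b, Ehmt2, Setdb1 and Brd1 had passed through shSin3a-1 alone. With probe sets that reached the filter on both arrays, the same sign was found in 5 of 15 genes (33.3%) and in 60.8% of all 3860. The 6 genes were Kat2a, Kat5, Kat7, Brd1, Kdm5a and Kdm6a. After centring, Kat2a, Kat5 and Kat7 were lower and Brd1, Kdm5a and Kdm6a higher. As deposited, both probe sets of Kdm6a were below 0 (-0.038 and -0.017), and 1 probe set of Kdm5a was at -0.094. Crebbp, Dot1l and Kdm5b then had all their probe sets past the filter below 0. Of the 28 further probe sets, 15 were above 0 (11 of the 24 that reached the filter on both arrays), 8 passed 1.5-fold and none passed 2-fold. The pooled SD between probe sets of 1 gene was 0.43 for these genes and 0.39 over all genes. The differences of most genes of the list are smaller than that spread, and those of Kmt2a, Kdm4a, Kdm4b, Kdm4c, Phf8 and Setdb1 exceed it.

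**Figure D3:**
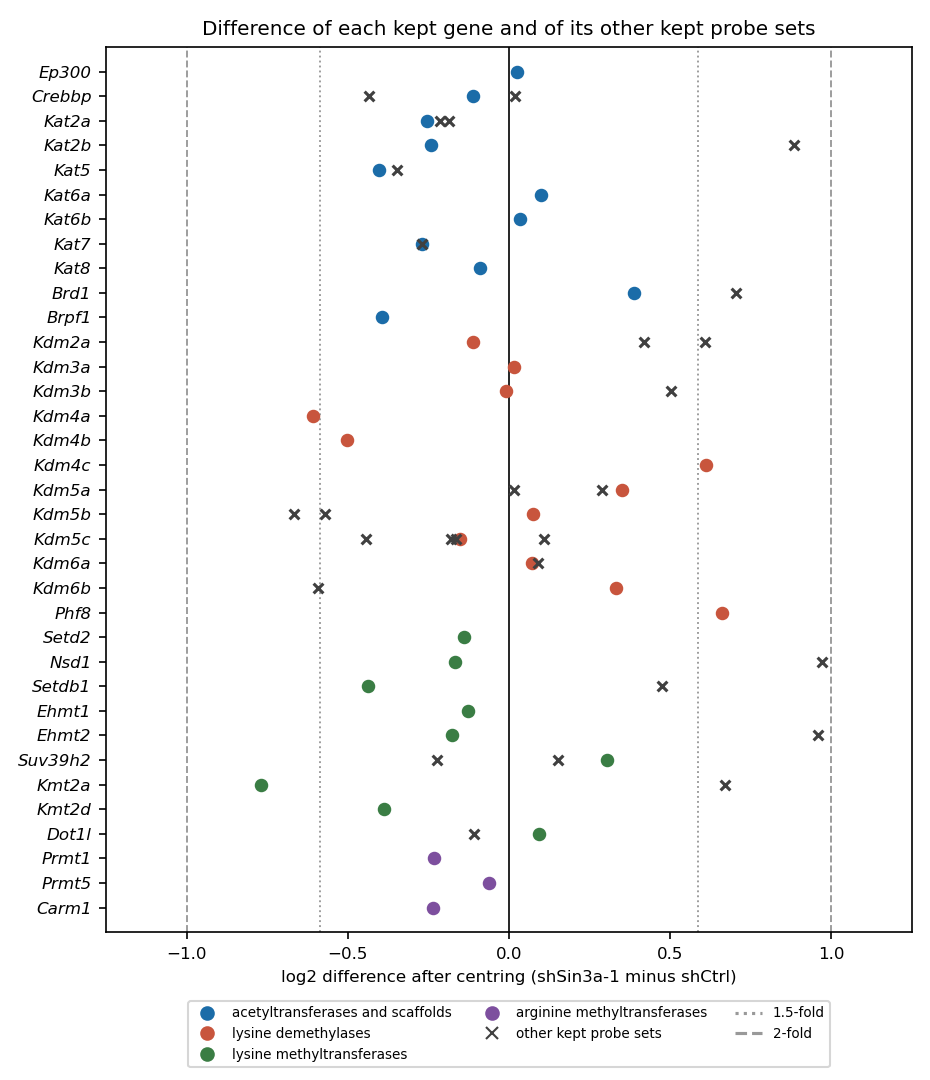
Each row is 1 of the 35 genes that passed the filter, and the horizontal axis is the log2 difference after centring (shSin3a-1 minus shCtrl). Coloured points are the brightest probe sets by enzyme class, crosses are the other probe sets past the filter, and dotted and dashed lines mark 1.5-fold and 2-fold. Every point and cross lies inside 2-fold. Of the 19 genes with crosses, 13 have probe sets on both sides of 0, spread widest in Kmt2a, Nsd1, Ehmt2 and Kat2b. The crosses of Ehmt2 and Kat2b passed the filter through shSin3a-1 alone.

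The lean toward lower signals held under every processing that was tried. Over the 14 alternatives, between 17.1% and 42.9% of the list's genes were above 0, and in each alternative the share among all genes was higher, from 45.1% to 62.4%. The size of the list's median depended on the scaling, from -0.25 with quantile scaling to -0.03 with the mean of each gene's probe sets. The list shares its 2 arrays with all other genes, so this describes these arrays and was not tested.

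**Figure D4:**
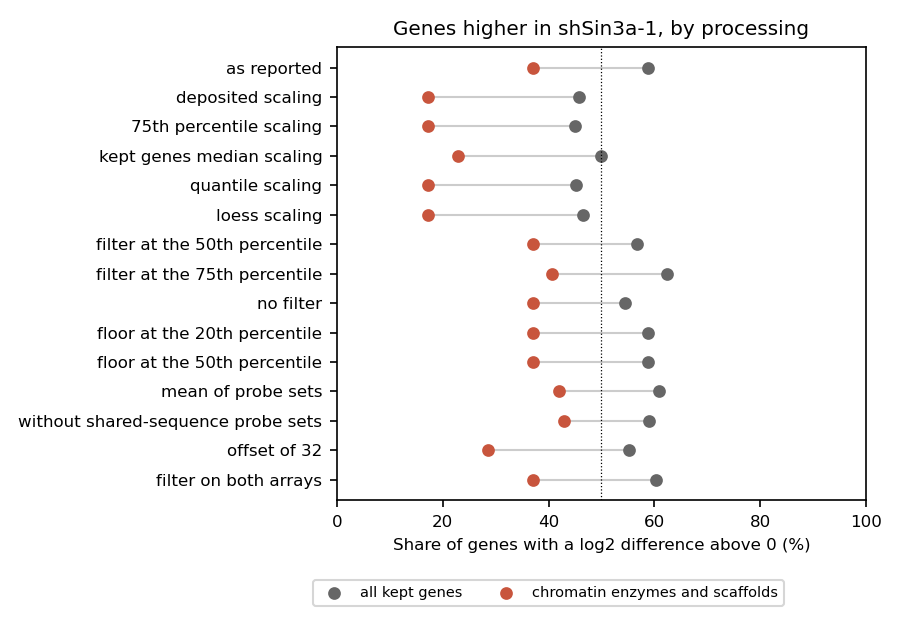
Each row is a way of processing the 2 arrays, and the horizontal axis is the share of genes with a log2 difference above 0, in percent. Red points are the chromatin genes and grey points all genes that passed the filter. The row without shared-sequence probe sets leaves out those ending in _a_at, _s_at or _x_at where a gene had another. The red point is left of the grey point in every row, at 37.1% against 58.8% as reported and 17.1% against 45.8% with the deposited scaling.

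Further genes of the same pathways were counted for comparison: 112 genes in 7 lists, of which 103 passed the filter. Of these, 55 were above 0 and 48 below after centring, with a median of 0.01, and 37 and 66 as deposited. The shares above 0 were 53.4% beside 58.8% of all genes, and 35.9% beside 45.8% as deposited. At 2-fold, 4 were higher and 2 lower (6 of 103), beside the 4.45% of all genes. Prmt8, an arginine methyltransferase known from brain, was the highest, with signals of 454 and 1013 (1.27) in its only probe set past the filter. Nsd3, an H3 lysine 36 methyltransferase and paralogue of Nsd1, had 230 and 487 (1.19), and a second probe set that reached the filter on both arrays gave 0.40; 2 others passed through shSin3a-1 alone. Hcfc2, a paralogue of the MLL partner HCFC1, had 371 and 754 (1.13), with 0.56 in a second probe set. Jade3, a scaffold of HBO1 complexes, had 399 and 798 (1.11), which was 1.00 as deposited.

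Setmar and Brpf3 were the genes lower by 2-fold in these lists. Setmar, a SET-domain protein, had signals of 493 and 201 (-1.19) in its only probe set past the filter. Brpf3, a further paralogue of Brpf1 and Brd1 that binds HBO1, had 273 and 124 (-1.03), and a second probe set gave -1.06, but both passed the filter through shCtrl alone. The 3 Brpf-type scaffolds were thus at -0.39 (Brpf1), 0.39 (Brd1) and -1.03 (Brpf3).

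The counts by list stand beside the 58.8% of all genes above 0. There were 19 of 33 subunits of acetyltransferase complexes above 0 (median 0.03), and 2 passed 2-fold. Of 20 further lysine methyltransferases 11 were above 0 (median 0.04), and 2 passed 2-fold. The other Kmt2 genes among these were chosen for mention after their values were seen. They were Kmt2b (1462 and 830, -0.71), Kmt2c (1122 and 1080, 0.05) and Kmt2e (776 and 1095, 0.61). In their brightest probe sets the genes named Kmt2 thus ranged from -0.77 (Kmt2a) to 0.61 (Kmt2e). Of 13 partner subunits of COMPASS and MLL complexes 7 were above 0 and Hcfc2 passed 2-fold, and of 10 further arginine methyltransferases and PRMT5 partners 6 were above 0 and Prmt8 passed 2-fold. No gene passed 2-fold among the 7 other acetyltransferases (median -0.12, Ncoa2 at 0.66), the 11 further demethylases and JmjC proteins (0.01, Jmjd1c at 0.54) and the 9 partners of H3 lysine 9 methylation (-0.16). In the last list the largest difference was that of the HP1 gene Cbx3 (-0.67), read here by a dim probe set with signals of 160 and 93.0 that passed through shCtrl alone.

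**Figure D5:**
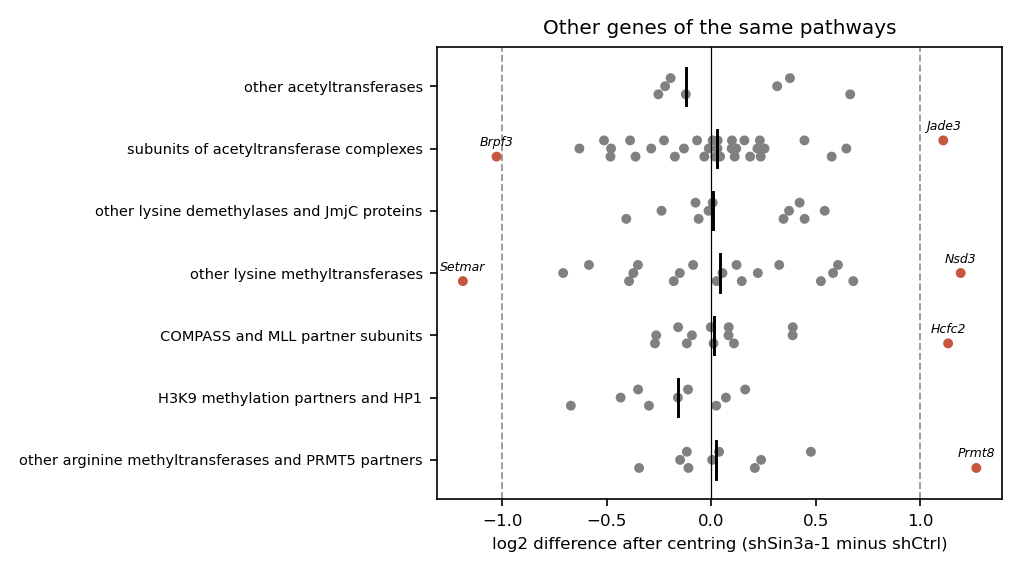
Each row is a list of further genes of the same pathways, and the horizontal axis is the log2 difference after centring (shSin3a-1 minus shCtrl). Points are genes that passed the filter, black bars are list medians, dashed lines mark 2-fold and the 6 red points are the genes past it; 4 of them lie on the higher side (Prmt8, Nsd3, Hcfc2 and Jade3) and 2 on the lower side (Setmar and Brpf3).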

How the data were processed

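For each of the 2 Affymetrix arrays, 1 of shCtrl and 1 of shSin3a-1, the authors deposited a linear intensity per probe set. The submitters' processing notes name MAS5 and the Expression Console of Affymetrix; versions and a genome build were not given in the sources used. MAS5 corrects each probe with its mismatch partner, which makes ratios between dim signals noisy. Precision is limited by having 1 array a group.

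Of 45101 probe sets, 34958 had exactly 1 symbol in the platform annotation; 34754 of these were updated through Entrez identifiers to RefSeq symbols (GRCm38.p6). Signals were taken to log2 and each array was centred on its median over probe sets other than the 64 controls, because the medians differed by -0.11; at the 75th percentile they differed by 0.0077. A gene was represented by its brightest probe set and kept if the brighter value reached the 60th percentile of its array. Values under the 40th percentile were set to it. Genes were counted at fixed sizes of 2-fold and 1.5-fold, with no test. The steps were tested on a simulated pair of arrays. A comparison of protein sequences was planned and not run, as no protein table was used here. Python 3.11.15, pandas 2.3.3 and statsmodels 0.14.6 (loess) were used.

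All members were named whatever their values, and companion genes where they passed 2-fold or led their list. The members and lists were chosen with earlier results of these data known. Of 14 alternatives, 13 concern scaling, filter, floor, probe sets and an offset of 32 before log2, and 1, chosen after seeing the data, asked for the filter on both arrays.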

Additional observations from a re-analysis of the deposited data

How the results depend on the processing

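The result that no listed gene passed 2-fold held in 13 of 14 alternatives; in the mean of probe sets 1 gene did (Kmt2d, -1.05), whose second probe set was under the floor in shSin3a-1. The 4 genes past 1.5-fold became 2 with quantile scaling, loess scaling and the offset of 32. Kmt2a passed 1.5-fold in every alternative except the mean of probe sets (-0.05), and Kdm4c fell under it with all 5 other scalings (0.48 to 0.54) and with the offset (0.55). Phf8 was between 0.52 and 0.55 in 4 scalings and at 0.39 in the mean of probe sets. The number of listed genes above 0 was 6 with the deposited, 75th percentile, quantile and loess scalings and 8 with the arrays centred on the kept genes. The list's median was -0.22 as deposited, -0.23 with the 75th percentile and with loess, and -0.25 with quantile scaling. The demethylase median turned below 0 as deposited (-0.065), with the 75th percentile (-0.073), the kept genes (-0.030), quantile (-0.090) and loess scaling (-0.072). The deposited, 75th percentile and kept-gene scalings each lower every centred difference by a constant, which is 0.11 for the deposited values. The cause of the other moves was not tested. In another alternative, probe sets ending in _a_at, _s_at or _x_at were dropped where a gene had another. Kat2b was then at 0.88 and Setdb1, whose dropped probe set ends in _a_at, at 0.47. The probe sets that remained for these 2 genes had passed the filter through shSin3a-1 alone. Prmt1, Prmt5, Carm1 and Kat8 kept theirs. The lysine methyltransferase median was -0.034 with the mean of probe sets. With the filter on both arrays, an alternative chosen after seeing the data, all 35 listed genes remained. The companion count at 2-fold stayed between 5 and 7. No paired analysis was possible because each group had 1 array, and for the same reason no replicate could be left out.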
